A study of Mus musculus with 6 samples.

Results

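The genes described here encode 10 secreted or membrane-bound signals of the innate immune system, namely Csf1, Il34, Il6, Lif, Clcf1, Il1b, Il33, Il18, Tnf and Tnfsf12. They were chosen by name for what they encode, with earlier results of these data known. All 10 were found among the 24421 gene symbols of the count table. RNA was sequenced from cochlear explants of wild-type mice at postnatal day 2, taken after removal of the modiolus, the tectorial membrane and the future stria vascularis, and the strain was not given in the sources used here. Explants were held in culture for 12 h, exposed to neomycin, an aminoglycoside antibiotic that kills hair cells (HCs), at 1 mM during 6 h, and then cultured for 5 days with 10 µM EdU, a label of dividing cells. There were 3 control and 3 neomycin samples, each pooled from 6 to 8 cochleae. The groups were taken from the sample titles, since the labels repeat one neomycin protocol for all 6 samples, and the control samples are described here as explants without neomycin.

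CSF1 and IL-34 are separate ligands of one receptor, CSF1R, on which tissue macrophages depend for survival. IL-6, LIF and CLCF1 signal through receptor complexes that hold gp130, the product of Il6st, and drive STAT3. IL-1β, IL-33 and IL-18 belong to the IL-1 family, whose receptors use MyD88 and activate NF-κB, and IL-1β and IL-18 are matured by caspase-1 in the inflammasome. TNF and TWEAK, the product of Tnfsf12, are ligands of the TNF superfamily. The cochlea holds resident macrophages, and macrophage numbers are known to rise around dying HCs.

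Total counts per sample ran from 50471116 to 66068108, so that 3 counts corresponded to between 0.0435 and 0.0575 CPM, the unit of counts after TMM scaling to equal library size. The label of an explant damaged by neomycin was checked against marker lists. The summed level of 10 HC markers was 694 to 814 CPM in the control samples and 217 to 273 CPM in the neomycin samples, and 8 of them were called lower. Supporting cell markers summed to 2870 to 3290 CPM in control and 3600 to 3770 CPM after neomycin, although the 2 genes of that list called were lower (Fgfr3 and Prox1) and 0 were called higher by edgeR, DESeq2 or limma-voom, with 4 higher at an unadjusted p under 0.05 by edgeR. Mesenchymal markers summed to 5990 to 6520 CPM in control and 6850 to 7050 CPM after neomycin. Of these 10 genes 2 were called higher (Dcn and Otos) and 1 lower (Col1a1), and the median log2 fold change was 0.08. Macrophage markers were detected in every sample. Of 10 neutrophil and lymphocyte genes 3 passed the expression filter, and Ms4a1 was at 0 counts. Their sum was 7.26 CPM in control replicate 3 and 12.4 CPM in neomycin replicate 3, against 0.644 to 1.15 CPM in the other 4 samples. It came mostly from the neutrophil genes S100a8, with 138 and 226 counts in those 2 libraries and at most 10 elsewhere, and S100a9, with 258 and 402 counts and at most 12 elsewhere. Without both replicate 3 samples, Lif was still the 1 member called and 4 members had an adjusted p under 0.05, as Tnfsf12 was then at 0.0509. Nothing in the labels says that the pools came from separate litters or culture days, so p-values measure the spread between these samples, which may be technical.

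The promoters of Csf1, Lif and Il33 are shown because their transcripts fell. The windows hold the 250 bases before each transcript start, read 5′ to 3′ on the gene's strand from RefSeq on GRCm38.p6, and Il33 has a pair of annotated starts. RefSeq windows were found for 7 of the 10 genes, and Il34, Clcf1 and Tnfsf12 had no entry. Capitals mark matches to the NF-κB consensus (Csf1), the AP-1 motif TGANTCA (Lif) and the TATA box TATAAA (Il33).
Csf1, chr3:107760470-107760719, minus strand: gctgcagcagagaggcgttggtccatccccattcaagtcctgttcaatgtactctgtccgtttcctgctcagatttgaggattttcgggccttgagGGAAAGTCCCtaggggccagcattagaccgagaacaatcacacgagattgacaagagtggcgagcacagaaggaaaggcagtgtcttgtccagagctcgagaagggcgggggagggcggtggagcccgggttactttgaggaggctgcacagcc
Lif, chr11:4257318-4257567, plus strand: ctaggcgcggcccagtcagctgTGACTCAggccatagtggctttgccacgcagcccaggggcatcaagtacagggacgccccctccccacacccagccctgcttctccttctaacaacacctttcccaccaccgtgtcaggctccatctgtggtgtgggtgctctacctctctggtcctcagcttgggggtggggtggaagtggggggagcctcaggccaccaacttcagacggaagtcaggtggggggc
Il33, chr19:29924863-29925112, plus strand: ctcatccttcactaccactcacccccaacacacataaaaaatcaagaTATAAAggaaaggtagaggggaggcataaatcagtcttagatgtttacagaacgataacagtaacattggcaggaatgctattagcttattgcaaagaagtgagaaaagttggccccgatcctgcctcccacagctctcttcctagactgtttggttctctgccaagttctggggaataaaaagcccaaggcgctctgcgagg
Il33, chr19:29945540-29945789, plus strand: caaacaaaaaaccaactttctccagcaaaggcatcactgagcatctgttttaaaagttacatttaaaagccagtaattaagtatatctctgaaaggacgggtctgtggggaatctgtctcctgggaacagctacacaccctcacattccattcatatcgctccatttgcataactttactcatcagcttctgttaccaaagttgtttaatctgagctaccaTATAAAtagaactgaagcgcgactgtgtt
Both strands were searched for 5 motifs. The NF-κB consensus occurred in 3.9% of 32851 RefSeq promoter windows of this length, the AP-1 motif in 6.75% and TATAAA in 12.4%. The core TGACG of the CRE was held by 17.8% and the STAT motif TTCNNNGAA by 7.02%, and neither was found in the 4 windows shown. The Csf1 match began 154 bases before the start, the Lif match 228 bases before it, and the Il33 matches 203 and 29 bases before their starts. The Il6 window held AP-1, TGACG and NF-κB matches that began 249, 135 and 44 bases before the start. TATAAA was also found in the windows of Il18, Il1b and Tnf. A match describes the letters only.

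Levels in control samples spanned a wide range, compared between genes per kilobase of exon (CPM per kb). Il33 was highest at 41.1 ± 2.81 CPM per kb (SD, n = 3), 6.25 times the next gene, and its 3 samples lay above those of every other member. Csf1 followed at 6.57 ± 0.742 CPM per kb, Tnfsf12 at 4.64 ± 0.276 and Il18 at 3.17 ± 0.404, and the samples of these neighbours did not overlap. Lif at 2.50 ± 0.789 CPM per kb overlapped Il18 above it, and Il34 at 2.36 ± 0.111 lay within the range of Lif. Clcf1 at 1.69 ± 0.287 CPM per kb overlapped Lif but not Il34. Tnf was lower at 0.389 ± 0.130 CPM per kb, and Il6 at 0.133 ± 0.110 and Il1b at 0.0592 ± 0.0368 were lowest and overlapped each other. Il6 also overlapped Tnf.

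**Figure D1:**
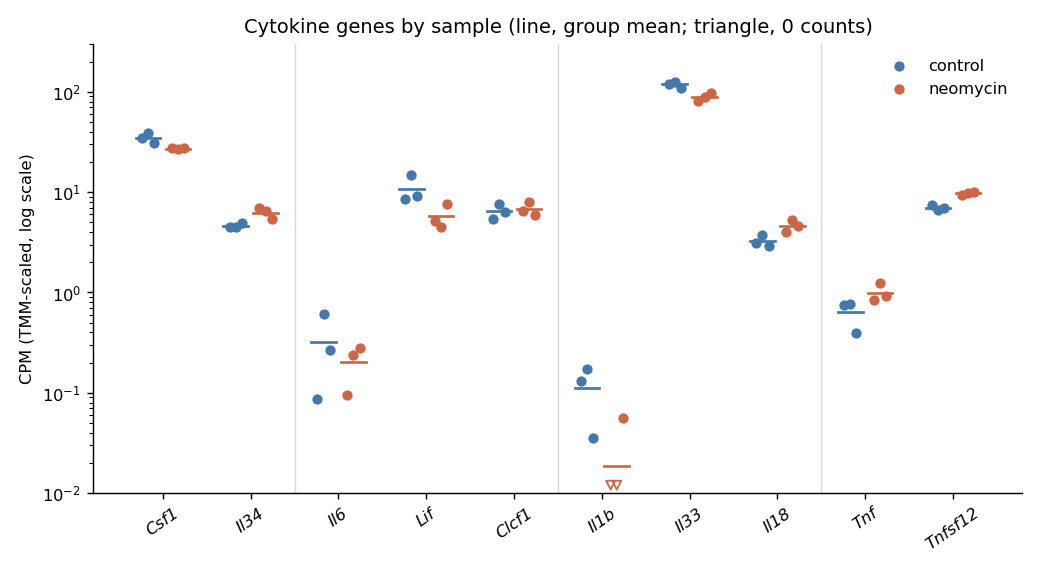
Levels of the 10 genes in TMM-scaled CPM on a log axis, with 1 point per sample (3 control, 3 neomycin), a line at each group mean and open triangles for samples with 0 counts. Il33 stands highest, the Lif points of the groups are separate with control above neomycin, and Il1b is at 0 counts in 2 neomycin samples.

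Of the 10 genes, 9 passed the expression filter and entered the quasi-likelihood test of edgeR, and Il1b was not tested for lack of counts. A gene was called at a Benjamini-Hochberg adjusted p under 0.05 with a fold change over 1.5. Lif was the 1 member called, and it was lower after neomycin, in a comparison that called 6.6% of 15988 tested genes lower. None of the 9 was called higher, where 2.24% of tested genes were. By edgeR, 0 members reached that fold change upwards at an unadjusted p under 0.05, and DESeq2 and limma-voom also called 0 higher and 1 lower. On the adjusted p alone, Csf1, Il33 and Lif were lower and Il34 and Tnfsf12 higher, 5 of 9 members. Of all genes tested, 16.1% passed that criterion as lower and 12.9% as higher. The groups did not overlap for 7 of the 9 members, against 43.5% of all genes tested. The median log2 fold change of the 9 was 0.09, and that of all genes tested was -0.0041.

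Csf1 encodes the main growth factor of macrophages (GRCm38 chromosome 3, 107741048 to 107760469, minus strand). Its level was 34.6, 38.6 and 30.8 CPM in control replicates 1, 2 and 3 and 27.5, 26.6 and 27.5 CPM in the neomycin replicates. Every control sample was above every neomycin sample, and the neomycin samples lay within 1 CPM of each other. Csf1 fell from 34.7 ± 3.92 to 27.2 ± 0.499 CPM (SD, n = 3 each), a log2 fold change of -0.35 with an SE of 0.09 and an adjusted p of 0.0140 by edgeR. The adjusted p rose to 0.0781 without control replicate 2 and 0.0645 without neomycin replicate 2. In bulk RNA, fewer cells of a type and less RNA per cell cannot be told apart.

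Il34 encodes the other ligand of CSF1R (chromosome 8, 110741829 to 110805924, minus strand). It was at 4.46, 4.54 and 4.87 CPM in control and 6.89, 6.46 and 5.38 CPM after neomycin, and the groups were again separate, in the opposite order to Csf1. Il34 rose from 4.63 ± 0.218 to 6.24 ± 0.778 CPM. Its fitted log2 fold change was 0.43, with an SE of 0.15 and an adjusted p of 0.0484 by edgeR, just under the threshold. The adjusted p was over the threshold in 10 of 17 alternative analyses. The adjusted p was 0.110 without control replicate 1, 0.128 without control replicate 2, 0.144 without neomycin replicate 1 and 0.145 without neomycin replicate 2. A correction for exon length gave a log2 fold change of 0.25 with an adjusted p of 0.267.

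The balance of the CSF1R ligands was then taken within each library, where library scaling has no effect. Il34 counts were 12.9%, 11.8% and 15.8% of Csf1 counts in control and 25.0%, 24.2% and 19.6% after neomycin. The 3 neomycin ratios were all above the 3 control ratios. Per kilobase of exon, Il34 stood at 34.7%, 31.7% and 42.6% of Csf1 in control and at 67.4%, 65.3% and 52.8% after neomycin, so Csf1 remained the more abundant transcript in all 6 samples. The log2 ratio of counts was -2.90 ± 0.22 in control and -2.13 ± 0.19 after neomycin, a difference of 0.77, or 1.71-fold. The two-sided exact permutation p was 0.1, the smallest that 3 samples against 3 allow. This outcome follows from the separate groups of Csf1 and Il34 in opposite order, and it adds no support beyond them. With the length correction the difference of the fitted log2 fold changes was 0.55, and without both replicate 3 samples the difference of the log2 ratios was 1.0. The sum of both ligands was 39.1, 43.2 and 35.7 CPM in control and 34.4, 33.1 and 32.8 CPM after neomycin.

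The receptor gene Csf1r was at 6.81, 7.07 and 6.16 CPM in control and 6.70, 6.27 and 6.37 CPM after neomycin. These ranges overlapped, and its log2 fold change was -0.05 with an SE of 0.13 and an adjusted p of 0.799 by edgeR. Of the alternative IL-34 receptors, Ptprz1, a receptor phosphatase, fell from 41.1 ± 2.10 to 19.6 ± 0.995 CPM (log2 fold change -1.07, adjusted p 3.99e-06), and the proteoglycan gene Sdc1 changed by -0.24 (adjusted p 0.0279, and 0.0579 to 0.0883 when control replicate 2 or 3 or any 1 neomycin sample was left out). The list of 22 macrophage marker symbols includes Csf1r, and 21 of them were in the count table (Emr1 was not). These 21 summed to between 174 and 210 CPM in control and between 226 and 283 CPM after neomycin. Of its 20 tested genes, 8 were called higher by edgeR, among them Tyrobp, an adaptor of myeloid receptors, and Trem2, and 0 lower. On the adjusted p alone by edgeR, 11 were higher and 1 (Cd14) was lower, and limma-voom but not DESeq2 called Cd14 lower. Without control replicate 1, C1qa, C1qc, Cd68, Fcgr1 and Mrc1 lost their calls, as did C1qa, Cd68 and Fcgr1 without neomycin replicate 2. Of 17 alternatives, Trem2 was called in 17, Tyrobp and Fcer1g in 15, C1qa in 8 and Fcgr1 in 10. With the length correction 6 of the 8 were no longer called (Tyrobp at a log2 fold change of 0.53, for example), and Trem2 and Mrc1 were. Adgre1, the gene of the macrophage antigen F4/80, was at 9.07 ± 1.22 and 9.95 ± 1.79 CPM, with an adjusted p of 0.541. The part of macrophage number in the levels of Csf1 and Il34 was not tested.

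**Figure D2:**
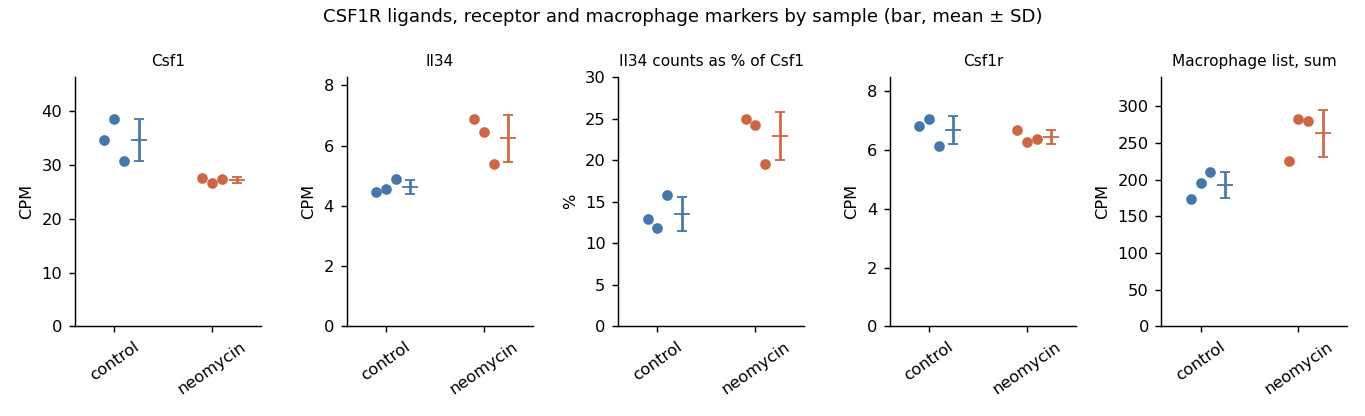
Csf1, Il34, Csf1r and the summed macrophage list in CPM, and Il34 counts as a percentage of Csf1 counts, each axis from 0, with 1 point per sample and the mean ± SD of each group (n = 3). Csf1 is lower and Il34, the ratio and the macrophage sum are higher in all 3 neomycin samples, while the groups overlap for Csf1r.

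Lif encodes leukaemia inhibitory factor, a cytokine of the gp130 group (chromosome 11, 4257557 to 4272514, plus strand). It was at 8.61, 14.8 and 9.18 CPM in control and 5.20, 4.54 and 7.69 CPM after neomycin. The groups were separate, with control replicate 2 standing above the other control samples and neomycin replicate 3 nearest to the control range. Lif fell from 10.9 ± 3.43 to 5.81 ± 1.66 CPM, or 1.87-fold. Its fitted log2 fold change was -0.90, with an SE of 0.23 and an adjusted p of 0.0114 by edgeR. The call depended on single libraries, since the adjusted p was 0.0710 without control replicate 2, where the log2 fold change was -0.61, and 0.0612 without neomycin replicate 2. With the length correction the log2 fold change was -0.89 and the adjusted p 0.0115.

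The genes whose log2 CPM followed Lif most closely over the 6 samples were Nipa2 (r = 0.9972), Dusp9 (0.9959) and Pitpnc1 (0.9859), from a search of 14035 genes. These correlations describe 6 libraries that also carry the group difference. Their own changes were smaller, with log2 fold changes of -0.21 for Nipa2, -0.61 for Dusp9 and -0.13 for Pitpnc1, and none passed the adjusted p threshold in edgeR.

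The related ligands Clcf1 and Il6 overlapped between the groups. Clcf1 encodes a neurotrophic cytokine (chromosome 19, 4214238 to 4223490, plus strand), and it was at 5.39, 7.57 and 6.33 CPM in control and 6.53, 7.97 and 5.92 CPM after neomycin. Its log2 fold change was 0.09 with an SE of 0.17 and an adjusted p of 0.733 by edgeR, and the sign turned to -0.02 without control replicate 1 and -0.04 without neomycin replicate 2. Il6, the founding member of the group (chromosome 5, 30013114 to 30019981, plus strand), had 6, 32 and 15 counts in control and 5, 14 and 15 after neomycin. In CPM, the control range of 0.0869 to 0.613 took in the whole neomycin range of 0.0941 to 0.279. The summed counts of 53 and 34 gave a ratio of neomycin to control of 0.686 (95% interval 0.433 to 1.08, counting error only). The fitted log2 fold change was -0.62 with an SE of 0.69 and an adjusted p of 0.532 by edgeR, and it turned to 0.24 without control replicate 2. A change of Il6 was not detectable in these samples.

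Among the receptors of these ligands, Il6st, the gp130 gene, was at 158, 158 and 126 CPM in control and 115, 103 and 97.5 CPM after neomycin. Control and neomycin samples did not overlap. The log2 fold change was -0.49 with an SE of 0.10 and an adjusted p of 0.00365, below the fold threshold for a call. With the length correction these were -0.28 and 0.0107. Lifr, the LIF receptor, was at 61.8 ± 1.52 and 62.9 ± 4.58 CPM (adjusted p 0.821), and Il6ra at 1.57 ± 0.385 and 1.03 ± 0.121 CPM (adjusted p 0.146). Cntfr, a receptor chain for CLCF1, was at 79.6 ± 4.13 and 84.9 ± 3.17 CPM (adjusted p 0.340).

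Il33 encodes an alarmin kept in the nucleus and released from damaged cells (chromosome 19, 29925114 to 29960718, plus strand). It was at 120, 126 and 110 CPM in control and 80.8, 89.8 and 96.5 CPM after neomycin, so all 3 neomycin samples lay below the control range. Il33 fell from 119 ± 8.10 to 89.0 ± 7.86 CPM. Its fitted log2 fold change was -0.41, with an SE of 0.08 and an adjusted p of 0.00357 by edgeR. Of the 5 members past the adjusted p threshold, Il33 was the 1 that stayed past it in all 17 alternatives, with log2 fold changes from -0.51 to -0.35. Its receptor gene Il1rl1 had 0 counts in the control samples and 4, 0 and 1 counts after neomycin, which is too few to compare.

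Il18 encodes a cytokine stored as an inactive precursor (chromosome 9, 50554827 to 50581840, plus strand). Its level was 3.14, 3.74 and 2.94 CPM in control and 4.03, 5.25 and 4.64 CPM after neomycin, with no overlap. The log2 fold change was 0.51 with an SE of 0.18, and the adjusted p of 0.0522 by edgeR missed the threshold, which DESeq2 passed at 0.0353. Without neomycin replicate 1 the adjusted p was 0.0394 and the log2 fold change 0.60, a call. With the length correction the log2 fold change was 0.17 and the adjusted p 0.542.

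Il1b encodes IL-1β, a cytokine that activated myeloid cells make (chromosome 2, 129364570 to 129371139, minus strand). It had 9, 9 and 2 counts in control and 0, 0 and 3 after neomycin. The sums of 20 and 3 gave a ratio of control to neomycin of 6.23 with a counting interval of 1.85 to 32.8, which leaves out the spread between samples. Tested without the expression filter, its adjusted p was 0.180 by edgeR and 0.264 by DESeq2 without independent filtering. Its counts may include reads of the antisense gene Il1bos, which shares 25 exon bases with it.

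The receptor side of the IL-1 family was lower where it changed. Il1rap, the accessory chain that IL-1 and IL-33 receptors share, fell from 16.0 ± 1.37 to 10.1 ± 1.09 CPM (log2 fold change -0.67, adjusted p 0.00150). With the length correction its log2 fold change was -0.46, under the fold threshold. Il1r1, the signalling receptor of IL-1, fell from 7.75 ± 2.18 to 4.96 ± 0.705 CPM (log2 fold change -0.64, adjusted p 0.0284), and leaving out control replicate 2 or neomycin replicate 1, 2 or 3 gave an adjusted p of 0.164, 0.0759, 0.0501 and 0.0596. Il18rap had 32, 22 and 22 counts in control and 1, 6 and 10 after neomycin (log2 fold change -2.03, adjusted p 0.0282), and leaving out control replicate 1 or 2 or neomycin replicate 1 or 2 gave 0.0807, 0.0806, 0.0825 and 0.0918. The partner chain Il18r1 was at 1.01 ± 0.234 and 1.27 ± 0.106 CPM (adjusted p 0.449).

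On the processing side, Casp1, the gene of caspase-1, was at a low level, with 18, 12 and 15 counts in control and 41, 46 and 52 after neomycin. All neomycin samples were above all control samples, also in CPM. Casp1 rose by a log2 fold change of 1.72 (SE 0.40, adjusted p 0.00795). Gsdmd, whose product forms the pore through which IL-1β and IL-18 leave the cell, rose from 5.93 ± 0.426 to 9.95 ± 1.31 CPM (log2 fold change 0.75, adjusted p 0.00224). Pycard, the inflammasome adaptor, rose on the adjusted p alone (log2 fold change 0.50, adjusted p 0.0232). With control replicate 1 or 2 or neomycin replicate 2 left out it missed the threshold, at 0.0516, 0.0989 and 0.12.

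Tnf encodes the prototype of its superfamily (chromosome 17, 35199381 to 35202007, minus strand), with 52, 40 and 22 counts in control and 45, 73 and 49 after neomycin. In CPM these were 0.754, 0.767 and 0.391 against 0.847, 1.24 and 0.912, so the scaled groups did not overlap although the raw counts did. The log2 fold change was 0.65 with an SE of 0.38 and an adjusted p of 0.216 by edgeR. Of its receptors, Tnfrsf1a was at 128 ± 16.3 and 127 ± 9.97 CPM (adjusted p 0.944), and Tnfrsf1b fell on the adjusted p alone, from 24.9 ± 3.69 to 18.0 ± 2.35 CPM (log2 fold change -0.46, adjusted p 0.0150). With control replicate 2 or neomycin replicate 2 left out it missed the threshold, at 0.0852 and 0.0613.

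Tnfsf12 encodes TWEAK (chromosome 11, 69686250 to 69695849, minus strand), and it was at 7.49, 6.69 and 6.89 CPM in control and 9.30, 9.90 and 10.0 CPM after neomycin. Every neomycin sample was above every control sample. Tnfsf12 rose from 7.02 ± 0.418 to 9.73 ± 0.376 CPM. Its fitted log2 fold change was 0.47, with an SE of 0.12 and an adjusted p of 0.0118 by edgeR. The adjusted p was 0.0512 without neomycin replicate 2, and with the length correction the log2 fold change was 0.22 and the adjusted p 0.222. Its exons share 731 bases on the same strand with Tnfsfm13, a read-through annotation that runs into the neighbouring gene. Reads of those bases may be missing from the counts of Tnfsf12. The TWEAK receptor gene Tnfrsf12a was at 92.1 ± 13.1 and 76.9 ± 13.3 CPM (adjusted p 0.132).

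**Figure D3:**
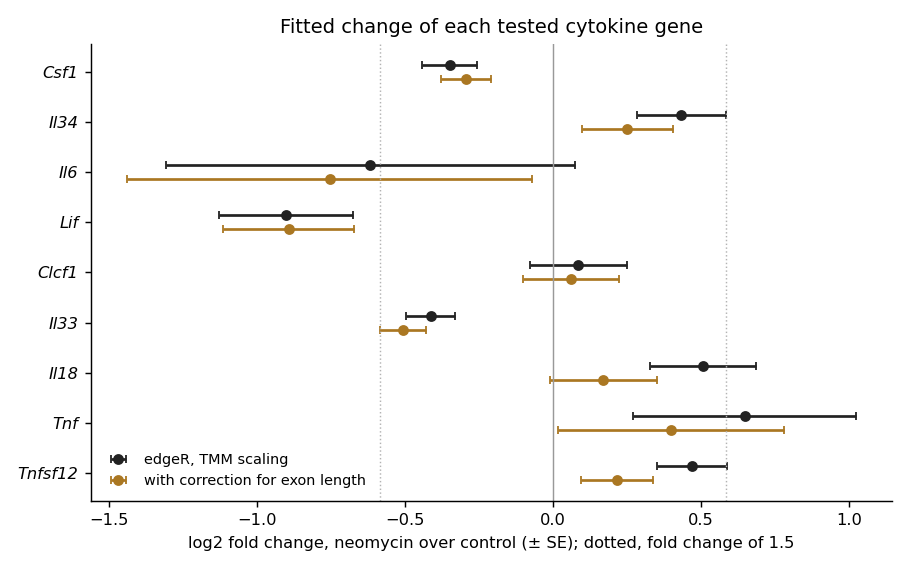
Fitted log2 fold change of neomycin over control with its SE for the 9 tested genes, by edgeR with TMM scaling (black) and with a correction for exon length (brown), with dotted lines at a fold change of 1.5. Lif lies beyond the dotted line in both fits, and Il34, Il18, Tnf and Tnfsf12 move towards 0 with the correction.

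The 4 members with a positive fold change and separate groups, Il34, Il18, Tnf and Tnfsf12, have exons of 1031 to 1959 bases in all. Those that fell, Csf1, Lif and Il33, have 5281, 4350 and 2886. After the correction for exon length 3 members had an adjusted p under 0.05, and they were Csf1, Lif and Il33. Their log2 fold changes were then -0.30, -0.89 and -0.51.

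Other genes of the same pathways were taken from 10 lists with 147 symbols, of which 143 were in the table and 123 were tested. Of these, 10 (8.13%) were called lower and 3 (2.44%) higher, close to the shares of all genes, and their median log2 fold change was -0.13. The 15 tested receptor genes had a median of -0.46, with 12 negative, 4 called lower (Ptprz1, Il1r1, Il1rap and Il18rap) and 0 called higher by edgeR, DESeq2 or limma-voom, nor at an unadjusted p under 0.05. The receptors called lower were 3 by limma-voom and 2 with the length correction, where Il1rap and Il1r1 were not called, and 2 when control replicate 2, neomycin replicate 1 or neomycin replicate 2 was left out. The list of processing and inflammasome genes held Casp1 and Gsdmd as called, both higher, among 11 tested genes. On the adjusted p alone by edgeR, 3 of the 11 were higher and 2 lower, and their median log2 fold change was 0.01. Furin, Rhbdf1 and Rhbdf2 were lower at an unadjusted p under 0.05 by edgeR. The 14 genes of the list summed to 574 to 598 CPM in control and 553 to 563 CPM after neomycin.

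Of 9 other TNF superfamily ligands tested, 2 were called lower and 8 had a negative fold change. Tnfsf13 was higher on the adjusted p alone by edgeR, with a log2 fold change of 0.56, and it passed that threshold in 9 of 17 alternatives. Tnfsf8, the ligand of CD30, was at 23.4, 39.4 and 29.4 CPM in control and 10.2, 10.3 and 10.1 CPM after neomycin. The neomycin samples were nearly equal and well below the control range, and Tnfsf8 fell by 1.59 on the log2 scale (adjusted p 2.69e-05). Tnfsf10, which encodes TRAIL, fell by 1.36 on the log2 scale (adjusted p 0.0261), and leaving out control replicate 2, neomycin replicate 2 or neomycin replicate 3 gave an adjusted p of 0.164, 0.0957 and 0.0737. Of the other CSF and IL-1 family ligands, 4 and 3 were tested, and edgeR, DESeq2 and limma-voom called 0 in each list. At an unadjusted p under 0.05 by edgeR, Kitl was lower, 1 gene of the CSF list, and 0 of the IL-1 list were.

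Genes induced by STAT3 and NF-κB were mostly not called. On the adjusted p alone by edgeR, 5 of 18 STAT3 response genes were lower and 0 higher. By the same criterion 6 of 26 NF-κB response genes were lower and 1 higher. Of all genes tested, 16.1% were lower and 12.9% higher on that criterion. Of 18 STAT3 response genes 17 had a negative fold change, and Lcn2, which encodes lipocalin-2, was the 1 called. It was at 801, 1018 and 702 CPM in control and 146, 221 and 546 CPM after neomycin, separate between groups but wide among the neomycin samples and highest of them in replicate 3 (log2 fold change -1.47, adjusted p 0.00868 by edgeR, 0.0509 by DESeq2 and 0.0507 by edgeR without neomycin replicate 2). Socs3, the feedback inhibitor of gp130 signalling, was at 91.9 ± 30.0 and 74.1 ± 11.1 CPM (adjusted p 0.241). Of 26 NF-κB response genes, Ptgs2 (cyclooxygenase-2), Tnfaip2 and Rel were called lower, with log2 fold changes of -1.42, -1.03 and -1.02. The chemokine gene Ccl5 was called higher at 0.81. Ccl5 and Rel were borderline, with adjusted p values of 0.0375 and 0.0472 by edgeR, and without control replicate 2 these were 0.108 and 0.177. Rel lost its call when any 1 sample was left out (adjusted p 0.0653 to 0.177), and Ccl5 when control replicate 1 or 2 or neomycin replicate 2 or 3 was (0.0602 to 0.22). Ptgs2 and Tnfaip2 were called in all 17 alternatives. Of 19 tested adaptors and kinases and 14 tested JAK-STAT genes, edgeR, DESeq2 and limma-voom called 0. On the adjusted p alone by edgeR, 2 adaptors and kinases and 3 JAK-STAT genes were lower, and 0 in either list were higher. At an unadjusted p under 0.05 by edgeR, 3 adaptors and kinases were lower and 1 higher, and 4 JAK-STAT genes were lower.

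**Figure D4:**
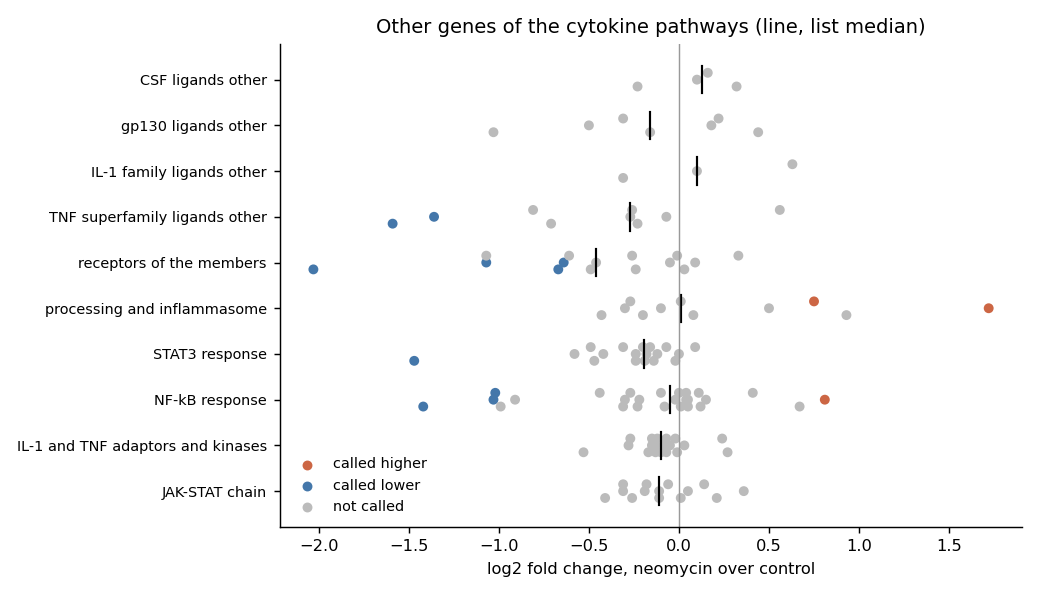
Log2 fold change of neomycin over control for each tested gene of the 10 pathway lists, 1 point per gene, coloured by call, with a line at each list's median. Called genes are few in every list, 10 lower and 3 higher in all, and the receptor list has the lowest median at -0.46.

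Levels of other cell types moved between the groups beside these results. HC markers were lower, and 7 of 10 endothelial markers were called lower, Pecam1 from 9.78 ± 2.79 to 1.49 ± 0.470 CPM, although the endothelial sums of 294 to 333 and 277 to 328 CPM overlapped. Their part in the levels of the cytokine genes was not tested.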

How the data were processed

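Samples were assigned to groups by their titles. The authors trimmed reads with Trimmomatic, aligned them to mm10 with HISAT2 and counted them with HTSeq, and the deposited counts are whole reads per gene symbol without normalization. The strand setting and the handling of multiply mapped reads are not given in the sources used here, so reads of overlapping or antisense genes may be shared. The study tested with DESeq2.

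Here, counts were filtered with filterByExpr, scaled by TMM and tested with the quasi-likelihood test of edgeR 4.0.16 in R 4.3.3 with Benjamini-Hochberg adjustment over 15988 genes. A call needed an adjusted p under 0.05 and a fold change over 1.5, as in the study's methods. The SE is the size of the log2 fold change over the square root of F. The ratio of Il34 to Csf1 was tested by exact permutation with scipy 1.17.1. Alternatives were DESeq2 1.42.0, limma-voom (limma 3.58.1), other scalings and filters, a replicate block, each sample left out, and removal of the trend on exon length by a lowess fit with a span of 0.3. Of the tested genes, 99.2% had a GENCODE M21 length (GRCm38, which is mm10). The ratio under the length correction and the fit without both replicate 3 samples were added after the data were seen. On simulated data with 200 of 15861 genes changed by a log2 fold of 1, edgeR recovered 157 with 6 false calls.

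The genes and lists were chosen with earlier results of these data known. All 10 members were named. Pathway genes were named if called or if they were receptors of the members. The other pathway genes Pycard, Furin, Rhbdf1, Rhbdf2, Tnfsf13, Kitl and Socs3 were singled out after their values were seen. So were the macrophage markers Cd14, Adgre1, Tyrobp, Trem2, Mrc1, C1qa, C1qc, Cd68, Fcgr1 and Fcer1g. The other markers chosen in this way were Fgfr3, Prox1, S100a8, S100a9, Pecam1, Dcn, Otos and Col1a1. Genes most like Lif were the 3 with the highest Pearson r among genes of at least 1 CPM. Counts of each pair of replicates differed beyond sampling noise (chi-square averaged over genes, at least 13.8). Intervals are 95% and, like the floor of 3 counts, cover counting error only.

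The list of other gp130 ligands is not reported here on its own. Of the remaining lists, Schwann cell markers had 1 of 8 called higher (S100b) and neuronal markers 3 of 8 lower.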

Additional observations from a re-analysis of the deposited data

How the results depend on the processing

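Across 17 alternatives to the edgeR fit, 148 of 151 fold changes of the 9 tested members kept their direction, and 125 also their side of the adjusted p threshold. The exceptions in direction were Il6, with log2 fold changes from -1.09 to 0.24 when 1 sample was left out, and Clcf1, from -0.04 to 0.22. With 1 sample left out, the members called ranged from 0 to 2, those with an adjusted p under 0.05 from 1 to 5, and the called pathway genes from 7 (without neomycin replicate 2) to 14. The members with an adjusted p under 0.05 were 5 in the edgeR fit, 3 with the length correction and 3 with the replicate block and length correction together. The log2 difference of the Il34 to Csf1 ratio was 0.55 with the length correction, 1.0 without both replicate 3 samples and otherwise 0.68 to 0.89.

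Same-numbered control and neomycin samples were not linked by the labels, and the correlations of their deviations were 0.165, 0.0264 and 0.0949. Control replicate 2 correlated slightly better with neomycin replicate 3 (0.0325) than with neomycin replicate 2. Every other sample correlated best with its own number. These correlations were weak, and whether the samples were paired cannot be told from them. S100a8 and S100a9 were high in both replicate 3 samples, and whether these samples shared an origin was not tested. With the replicate block 6 members had an adjusted p under 0.05, as Il18 joined at 0.0347, and 1465 of all genes were called against 1413 without it.

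Counts were low for Il1b and Il6, at most 9 and 32 in a sample. For Il6 the spread between samples was wide beside the counting interval of its ratio.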
